A study of Mus musculus with 45 samples.

Results

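The comparison set 3 tumours given serplulimab with HLX53 against 3 given serplulimab with tiragolumab. They were the tumours of these 2 treatment arms of experiment T2215, 6 of the 45 in the series, and they were chosen by their treatment label alone. Every tumour of the experiment grew from CT26, a single established line of BALB/c colon carcinoma, injected under the skin of HuGEMM mice of BALB/c background that carry human PD-1 and human TIGIT in a double knock-in. Serplulimab and pembrolizumab are antibodies against PD-1, and HLX53 and tiragolumab are agents against TIGIT. Each agent was given at 10 mg/kg, 2 times a week into the peritoneum from day 8, when tumours measured 90 to 100 mm3. The 2 arms therefore shared the knock-in, the tumour line and serplulimab, and differed in the TIGIT agent. The experiment held 27 tumours in 9 groups of 3, in which each PD-1 setting (none, pembrolizumab, serplulimab) was combined with each TIGIT setting (none, tiragolumab, HLX53), and its control mice received saline. The age of the mice is not given in the labels, and no label ties tumours with the same replicate number together. RNA was taken from whole tumour tissue, so a lower level of a gene can come from fewer cells of a type or from less RNA per cell, and these cannot be told apart.

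TIGIT is an inhibitory receptor on T cells and natural killer cells. It binds PVR and, more weakly, NECTIN2 on tumour and myeloid cells, and it competes for these ligands with the activating receptor CD226. PD-1 is a second inhibitory receptor of T cells, which binds PD-L1 and PD-L2, and antibodies against the pair are given together to release T cells from both signals.

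No gene passed the test between the arms. Of 14914 genes tested with limma, 0 (0%) had a Benjamini-Hochberg adjusted p under 0.05, and the smallest adjusted p was 0.373. At an unadjusted p under 0.05 there were 1941 genes (13.0%), 600 of them higher with HLX53 (4.02%) and 1341 lower (8.99%). The 3 HLX53 tumours lay wholly above the 3 tiragolumab tumours in 936 genes (6.28%) and wholly below them in 1945 (13.0%), with values under a log2 of −9 taken as 0. With libraries centred on their medians the unadjusted split was 737 higher and 1062 lower. The median gene had a 95% confidence interval of 0.451 to either side of its log2 fold change, and in 10045 genes (67.4%) the interval lay inside −1 to 1. In the remaining genes the interval reached past a doubling or a halving. All fold changes below are the HLX53 arm minus the tiragolumab arm on the scale of log2(FPKM + 0.5), with the SE of the fit, and for none of them does "higher" or "lower" mean a change past the threshold.

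The tumours within an arm were unequal. The 3 HLX53 tumours correlated with each other at 0.895 to 0.977 over all genes tested, the 3 tiragolumab tumours at 0.966 to 0.986, and tumours of different arms at 0.864 to 0.986. Replicate 2 of the HLX53 arm had an adipocyte score, the mean log2(FPKM + 0.5) of 12 fat cell genes, of 6.64, against 4.04 and 1.82 in replicates 1 and 3 and 2.01 to 3.91 in the tiragolumab arm. Replicate 2 of the tiragolumab arm held RNA of skeletal muscle and skin: its muscle score over 14 genes was 2.19 and its skin keratinocyte score over 7 genes 3.0, against −0.52 to −0.07 and −0.47 to 1.34 in the other 5 tumours. In that tumour Acta1, skeletal actin, stood at 21.5 FPKM and Krt10, a keratin of the upper epidermis, at 37.2. In the other 5 tumours Acta1 was at 0.0599 to 0.259 and Krt10 at 1.14 to 1.32. Without both of these replicate 2 tumours 0 genes passed and 581 had an unadjusted p under 0.05. Without HLX53 replicate 3, 12 genes passed by limma. Of these, 7 kappa light chain segments, the T cell receptor segment Trav10d and BC117090 were higher, and Brca2, 2610021A01Rik and Gm43703 lower. In each of these segments the tumour left out was the lowest of its arm. Igkv6-23 had 9.45, 3.805 and 5.84e-06 FPKM in HLX53 replicates 1, 2 and 3, and Trav10d 1.23, 0.544 and 6.02e-06. These calls thus rest on leaving out the HLX53 tumour without such reads. A fit that weights each library by its scatter called 10204 genes, with a weight of 103 for HLX53 replicate 1 and 0.0766 for replicate 2, and its estimate stopped before it converged. The labels say no more of the tumours in a group than that they are separate samples. The p-values rest on the spread between tumours within a group, pooled over all 27 tumours of the experiment and not over these 6 alone. With the 6 fitted alone, 0 genes passed and 1142 had an unadjusted p under 0.05. CT26 is described in the labels as undifferentiated, and the epithelial list scored 0.53 to 3.04 in the 6 tumours.

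**Figure D1:**
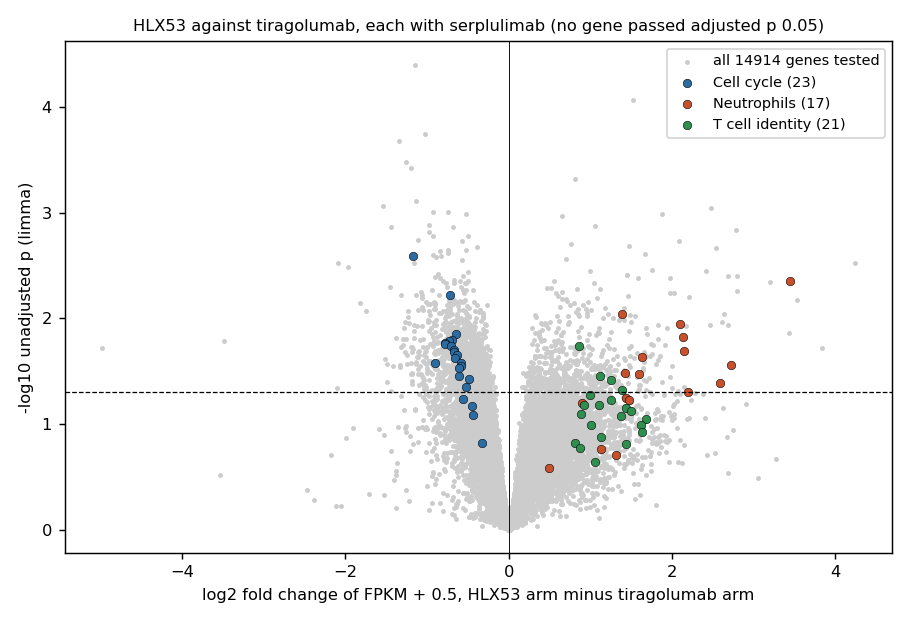
Each point is a gene, with the log2 fold change (HLX53 arm minus tiragolumab arm) on the x axis and −log10 of the unadjusted p from limma on the y axis; the dashed line is the unadjusted threshold of 0.05. All 23 cell cycle genes lie left of 0 and all 17 neutrophil and 21 T cell genes lie right of it, and no gene passed after adjustment.

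Genes of cell division were lower in the HLX53 tumours. All 23 members of the cell cycle list had a negative fold change, with a median of −0.64 and a range of −1.17 to −0.32, against a median of −0.03 over all genes tested. Of the 23, 19 were lower at an unadjusted p under 0.05 and 21 were lower in every HLX53 tumour than in every tiragolumab tumour, beside backgrounds of 8.99% and 13.0%, and 0 passed the adjusted test. Cenpf, a kinetochore protein of mitosis (GRCm38 chromosome 1, 189640606 to 189688086, minus strand), had 5.63, 4.15 and 11.8 FPKM in HLX53 replicates 1, 2 and 3 and 15.2, 13.9 and 17.2 in the tiragolumab tumours. The arms do not overlap, and the HLX53 arm is the more scattered. Its log2 fold change was −1.17 ± 0.34 (SE, n = 3 in each arm; limma, unadjusted p = 0.00255, adjusted p = 0.373). Tyms, the thymidylate synthase that makes a DNA precursor, had 42.6, 30.9 and 51.7 FPKM with HLX53 and 67.8, 65.2 and 70.7 with tiragolumab (−0.73 ± 0.24). The proliferation marker Mki67 had 16.4, 18.5 and 26.5 against 33.1, 26.1 and 36.2 (−0.64 ± 0.24), and here HLX53 replicate 3 overlapped with tiragolumab replicate 2. HLX53 replicate 3 was the highest of its arm in each of these 3 genes.

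The mitotic kinase Plk1 (−0.73 ± 0.28), the spindle factor Tpx2 (−0.70 ± 0.27), the ribonucleotide reductase subunit Rrm2 (−0.78 ± 0.30), the anaphase activator Cdc20 (−0.79 ± 0.31), the checkpoint kinase Bub1 (−0.70 ± 0.28) and the topoisomerase Top2a (−0.67 ± 0.26) were lower without overlap. The transcription factor Foxm1, which drives mitotic genes, was at −0.90 ± 0.38 with overlapping arms. Of the 4 members above an unadjusted p of 0.05, the replication clamp Pcna (−0.45 ± 0.23) and the cyclin Ccnb2 (−0.32 ± 0.22) did not overlap either. Outside the list, Brca2, a DNA repair gene (chromosome 5, 150522630 to 150570329, plus strand), had 5.04, 2.73 and 8.5 FPKM against 12.3, 10.6 and 13.0 (−1.19 ± 0.28, unadjusted p = 0.000375 by limma). Both arms' values for Brca2 were again separate, with HLX53 replicate 3 nearest to the tiragolumab tumours.

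The count of cell cycle genes rested in part on 1 tumour. HLX53 replicate 2, with a cell cycle score of 4.70, was the lowest of the experiment's 27 tumours, whose scores ran from 4.70 to 6.20. Its 2 companions scored 5.26 and 5.62, and the tiragolumab tumours 5.83, 5.76 and 5.95. Without that replicate all 23 genes were still lower, with a median of −0.38, but 3 rather than 19 had an unadjusted p under 0.05. With both replicate 2 tumours left out it was 2 genes (median −0.44), and without tiragolumab replicate 3 it was 6. Over all 14914 genes tested the matching count of lower genes fell too, from 1341 to 246, 343 and 573 in the same order. The same HLX53 tumour had the highest adipocyte, endothelial and matrix scores of the 6, and the part of these in the cell cycle result was not tested.

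The upstream bases of the 3 cell cycle genes with the smallest p in the promoter table, and of the 3 CXC chemokine genes of the neutrophil list with the smallest p there, are shown because members of each list differed together. Each is the 250 bases before the RefSeq start on GRCm38.p6, 5′ to 3′ on the gene's strand. For the cell cycle genes capitals mark CCAAT, the box bound by NF-Y, and TTTGAA, a form of the cell cycle homology region; for the chemokines they mark a form of the NF-kB site, GGG and TTTCC with any pair of bases between. Each was searched on both strands, so the reverse complement is in capitals too.
Cenpf (chr1:189688087-189688336, minus strand): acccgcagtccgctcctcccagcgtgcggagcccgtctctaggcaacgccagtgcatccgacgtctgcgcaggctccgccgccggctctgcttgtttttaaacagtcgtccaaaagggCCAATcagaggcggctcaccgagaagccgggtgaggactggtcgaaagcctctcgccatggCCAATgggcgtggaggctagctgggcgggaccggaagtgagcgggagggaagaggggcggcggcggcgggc
Tyms (chr5:30073626-30073875, minus strand): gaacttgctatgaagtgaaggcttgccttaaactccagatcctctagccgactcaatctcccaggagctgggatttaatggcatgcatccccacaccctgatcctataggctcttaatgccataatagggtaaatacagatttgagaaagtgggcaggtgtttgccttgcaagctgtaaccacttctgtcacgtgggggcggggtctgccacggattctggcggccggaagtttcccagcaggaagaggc
Mki67 (chr7:135716380-135716629, minus strand): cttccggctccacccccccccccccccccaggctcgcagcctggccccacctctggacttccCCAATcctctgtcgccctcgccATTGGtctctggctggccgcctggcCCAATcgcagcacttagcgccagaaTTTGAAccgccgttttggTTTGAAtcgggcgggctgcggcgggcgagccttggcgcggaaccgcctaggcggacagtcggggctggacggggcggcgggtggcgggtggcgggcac
Cxcl3 (chr5:90785851-90786100, plus strand): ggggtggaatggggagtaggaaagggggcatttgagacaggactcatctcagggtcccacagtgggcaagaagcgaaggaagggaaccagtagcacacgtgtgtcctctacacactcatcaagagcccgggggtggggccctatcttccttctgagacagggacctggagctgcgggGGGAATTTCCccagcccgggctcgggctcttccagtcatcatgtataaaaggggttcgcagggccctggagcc
Cxcl2 (chr5:90903649-90903898, plus strand): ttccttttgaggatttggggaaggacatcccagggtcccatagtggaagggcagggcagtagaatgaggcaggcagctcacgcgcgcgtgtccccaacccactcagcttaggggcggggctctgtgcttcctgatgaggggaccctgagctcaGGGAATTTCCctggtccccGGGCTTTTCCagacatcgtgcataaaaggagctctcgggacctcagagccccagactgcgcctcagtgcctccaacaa
Cxcl1 (chr5:90890995-90891244, plus strand): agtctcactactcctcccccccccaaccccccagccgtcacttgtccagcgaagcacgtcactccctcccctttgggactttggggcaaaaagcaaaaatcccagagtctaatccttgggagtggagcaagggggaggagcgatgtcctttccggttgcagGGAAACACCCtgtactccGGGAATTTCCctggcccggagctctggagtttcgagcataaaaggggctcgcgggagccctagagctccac

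Cenpf holds 2 CCAAT boxes, Mki67 holds 3 with 2 copies of TTTGAA, and Tyms holds neither motif. Of 19 cell cycle genes with a promoter in the table, out of 23 tested, 17 (89.5%) hold CCAAT and 7 (36.8%) hold TTTGAA, against 33.8% and 16.0% of all 32851 promoter windows of this length. The chemokine promoters each hold the NF-kB form, Cxcl3 1 time and Cxcl2 and Cxcl1 2 times. It is in 3 of 15 promoters of the neutrophil list (20.0%), all of them these chemokines, and in 1.41% of all windows. These are matches of letters, counted without a test.

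Neutrophil genes lay the other way. All 17 tested members, which include chemokines that draw neutrophils, had a positive fold change, with a median of 1.59 and a range of 0.49 to 3.45. The list held 19 genes, and Ly6g and Camp did not pass the filter, with at most 0.5483 and 0.7076 FPKM in the 6 tumours. Of them 11 were higher at an unadjusted p under 0.05 and 12 were higher without overlap, beside backgrounds of 4.02% and 6.28%, and 0 passed the adjusted test. Mmp9, a gelatinase stored in neutrophil granules (chromosome 2, 164940780 to 164955850, plus strand), had 62.6, 247 and 16.1 FPKM with HLX53 and 6.45, 5.29 and 4.49 with tiragolumab. Its arms are far apart, yet the HLX53 tumours themselves span from 16.1 to 247, and the fold change was 3.45 ± 1.08 (limma, unadjusted p = 0.0044, adjusted p = 0.373). Mmp8, the neutrophil collagenase, had 2.67, 5.27 and 1.66 against 0.749, 1.2 and 0.545 (1.39 ± 0.48).

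The chemokines that draw neutrophils through CXCR2 were more even within the HLX53 arm. Cxcl3 had 7.17, 6.11 and 6.95 FPKM with HLX53 and 1.18, 2.27 and 0.554 with tiragolumab (2.09 ± 0.75). Cxcl2 had 18.4, 24 and 17.7 against 5.45, 5.55 and 2.17 (2.15 ± 0.86). For both genes the 3 HLX53 tumours are close together and every one is above every tiragolumab tumour. Cxcl5 was also higher without overlap, at 2.72 ± 1.15, as were Cxcl1 at 1.13 ± 0.80 and their receptor Cxcr2 at 2.13 ± 0.80. The calprotectin subunits S100a8 (90.2, 158 and 35.3 against 19.2, 25.8 and 9.74 FPKM; 2.20 ± 1.05) and S100a9 (2.59 ± 1.19) and the iron-binding Lcn2 (1.47 ± 0.74) did not overlap. Csf3r, the receptor for granulocyte growth factor, was at 1.63 ± 0.67 with overlap, the decoy receptor Il1r2 at 1.43 ± 0.62 without it, Retnlg at 1.31 ± 0.98 with it and Trem1, an amplifying receptor, at 0.49 ± 0.42 without it.

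The acute phase gene Saa3 had 385, 703 and 203 FPKM with HLX53 and 61.3, 125 and 16.2 with tiragolumab (2.91 ± 1.49), and interleukin 1 beta, Il1b, had 42.8, 30.0 and 15.3 against 13.2, 11.6 and 6.74 (1.38 ± 0.65). Both were higher in every HLX53 tumour. The list of interleukin 1 and inflammatory cytokines had a median of 0.42. At an unadjusted p under 0.05, 2 of 17 members were higher and 0 lower, beside backgrounds of 4.02% and 8.99%. The neutrophil count of 11 became 2 without HLX53 replicate 2, 3 without tiragolumab replicate 3, 4 without both replicate 2 tumours, and 7 without HLX53 replicate 1 or tiragolumab replicate 1. All 17 genes stayed positive in each of these, with medians of 1.30 to 1.63. Over all 14914 genes tested the matching count of higher genes went from 600 to 169, 157, 238, 500 and 290, in the same order.

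**Figure D2:**
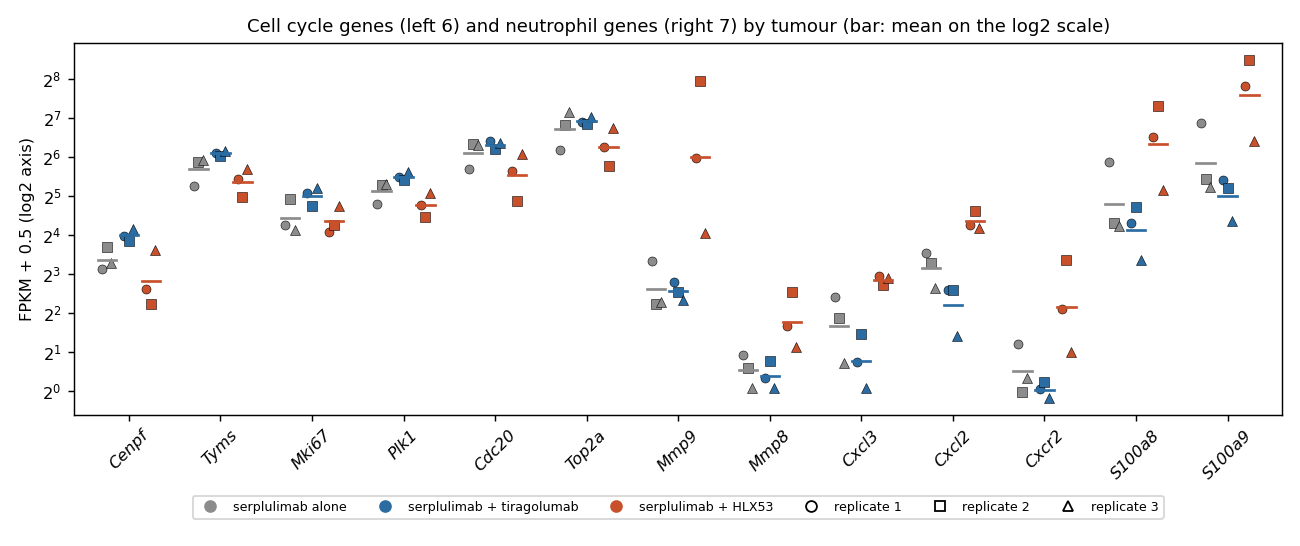
FPKM + 0.5 of 6 cell cycle and 7 neutrophil genes on a log2 axis, by tumour, for serplulimab alone, with tiragolumab and with HLX53; shapes are replicates and bars are means on the log2 scale. The HLX53 tumours lie below the tiragolumab tumours in the cell cycle genes apart from Mki67, where they overlap, and above them in the neutrophil genes.

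The targets of the agents were read from the mouse gene models. The sources used here do not say which part of the mouse genes the knock-in replaced, so these values are reads assigned to mouse sequence. Tigit (chromosome 16, 43648867 to 43664146, minus strand) had 9.92, 2.77 and 9.97 FPKM with HLX53 and 14.0, 10.8 and 13.3 with tiragolumab. The arms do not overlap, and replicate 2 is the low tumour of each. The fold change was −0.89 ± 0.43 (95% interval −1.80 to 0.01; limma, unadjusted p = 0.053, adjusted p = 0.373), and it was −0.33 without HLX53 replicate 2. Cd226, the activating partner of TIGIT, lay in the opposite direction, with 3.48, 3.99 and 0.953 FPKM against 0.852, 2.12 and 0.183 (1.14 ± 0.57), and these overlap. The related receptor Cd96 was at 0.90 ± 0.53. The T cell identity score, the mean log2(FPKM + 0.5) of 21 genes, was 2.636, 3.196 and 1.707 with HLX53. With tiragolumab it was 1.313, 2.156 and 0.453. HLX53 replicate 2 thus had the highest T cell score and the lowest Tigit, and tiragolumab replicate 3 had the lowest score with Tigit at 13.3 FPKM. Which cells the Tigit reads came from was not tested.

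Of the ligands, Nectin2 had 18.6, 22.4 and 16.3 FPKM with HLX53 and 14.9, 16.2 and 14.6 with tiragolumab (0.31 ± 0.16), a small difference without overlap. Pvr, the main ligand and the most abundant in FPKM, had 73.7, 24.5 and 63.2 against 56.5, 50.3 and 56.5 (−0.16 ± 0.34). Its low HLX53 tumour was again replicate 2, and without it the fold change was 0.33. Nectin1 (0.40 ± 0.27), Nectin3 (0.79 ± 0.54) and Nectin4 (0.25 ± 0.35), adhesion molecules of the same family, overlapped between the arms, and Nectin4 stood at −0.12 without HLX53 replicate 2. None of the 8 tested genes of this receptor system had an unadjusted p under 0.05.

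Pdcd1, which encodes PD-1 (chromosome 1, 94038305 to 94052553, minus strand), had 2.1, 2.38 and 0.615 FPKM with HLX53 and 0.364, 0.758 and 0.136 with tiragolumab. Only HLX53 replicate 3 fell within the range of the tiragolumab tumours, and the fold change was 1.20 ± 0.63. The PD-1 ligands Cd274 (PD-L1; 61.8, 36.8 and 28.2 against 19.4, 45 and 5.73 FPKM; 1.19 ± 0.85, and 0.43 without tiragolumab replicate 3) and Pdcd1lg2 (PD-L2; 1.01 ± 0.80) and the phosphatase Ptpn11 that PD-1 recruits (−0.17 ± 0.16) had no unadjusted p under 0.05. Nor did Cd80, which can bind PD-L1 (0.08 ± 0.15).

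**Figure D3:**
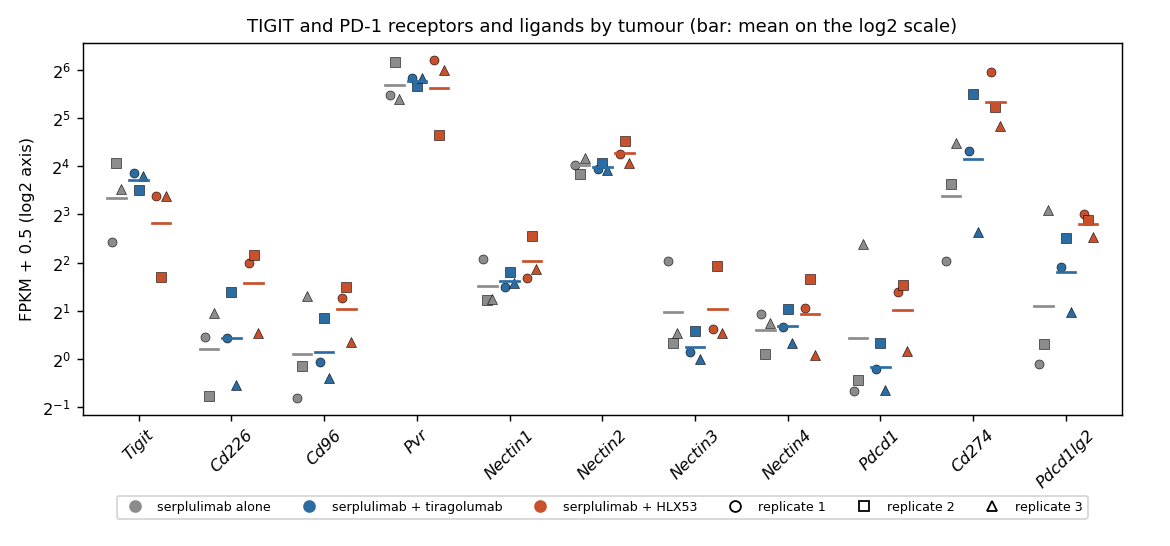
FPKM + 0.5 of TIGIT and PD-1 receptors and ligands on a log2 axis, by tumour, for serplulimab alone, with tiragolumab and with HLX53; shapes are replicates and bars are means on the log2 scale. Tigit lies lower in the HLX53 tumours and Nectin2 and Pdcd1lg2 higher without overlap, while the other 8 genes overlap between these arms.

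Lymphocyte genes stood higher with HLX53 in most lists, with wide spread. All 21 T cell identity genes were positive (median 1.13, range 0.81 to 1.68), 4 at an unadjusted p under 0.05 and 1 without overlap, Cd6, beside backgrounds of 4.02% and 6.28%. No member had an unadjusted p under 0.05 without HLX53 replicate 2 or without tiragolumab replicate 3 (medians 0.78 and 0.81), and 14 or 15 had one without HLX53 replicate 3 or tiragolumab replicate 2. In the same order 169, 157, 2092 and 893 of all 14914 genes were higher at that p, against 600 with all tumours. Cd3e, a chain of the T cell receptor complex, had 4.65, 6.65 and 2.17 FPKM with HLX53 and 1.46, 2.42 and 0.369 with tiragolumab (1.43 ± 0.75). HLX53 replicate 3 lay below tiragolumab replicate 2. The CD8 chain Cd8a had 5.78, 8.69 and 2.11 against 1.03, 3.51 and 0.246 (1.68 ± 0.95), and Cd4 had 2.35, 7.05 and 1.49 against 1.01, 1.59 and 0.507 (1.25 ± 0.57). In both genes the order within an arm was the same, with replicate 2 highest and replicate 3 lowest.

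Cytotoxic genes showed the same order less regularly. All 19 were positive with a median of 1.02, 2 had an unadjusted p under 0.05 (background 4.02%) and none was free of overlap (6.28%). The median was 0.49 without tiragolumab replicate 3 and 1.85 without tiragolumab replicate 2. The granzyme Gzmk was at 1.47 ± 0.54 and the receptor Klrd1 at 1.66 ± 0.75. Granzyme B, Gzmb, had 121, 71.7 and 33.7 FPKM with HLX53 and 29.8, 105 and 10.9 with tiragolumab (1.01 ± 1.07), and perforin, Prf1, had 43.3, 20.4 and 10.5 against 6.68, 35.5 and 3.7 (1.07 ± 1.08). In both the tiragolumab replicate 2 tumour stood among the HLX53 tumours. Ifng, interferon gamma, was at 0.15 ± 0.84 and Gzma at 0.16 ± 0.81, and each was negative without tiragolumab replicate 3 (−0.40 and −0.50), Ifng also without HLX53 replicate 1 (−0.27).

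Regulatory T cell genes were all positive, 11 of 11, with a median of 0.71 (0.46 without HLX53 replicate 2 and 0.40 without tiragolumab replicate 3). Of the 11, 2 were higher at an unadjusted p under 0.05 (background 4.02%) and 4 were higher without overlap (6.28%). Il10, an inhibitory cytokine that several immune cells make, had 1.89, 1.87 and 0.89 FPKM with HLX53 and 0.42, 0.651 and 0.183 with tiragolumab (1.15 ± 0.40). Foxp3, the lineage factor of regulatory T cells, had 0.78, 1.3 and 0.622 against 0.508, 0.378 and 0.245 (0.66 ± 0.29). Neither overlapped, and Foxp3 stayed close to the filter of 0.5 FPKM, where the added 0.5 shrinks the fold change. Of factors that mark memory or effector states, Prdm1 (1.11 ± 0.40) and Tcf7 (1.0 ± 0.40) were higher without overlap, and the cytokine receptor Il7r (1.53 ± 0.63) with it. The costimulatory receptor Cd27 was at 1.38 ± 0.60 without overlap, and the checkpoint receptors Lag3 and Havcr2 at 1.41 ± 0.73 and 0.91 ± 0.51 with it.

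Natural killer cell genes had a median of 0.58 (0.33 without HLX53 replicate 2 and 0.38 without tiragolumab replicate 3). Of 10 members 1 had an unadjusted p under 0.05 (background 4.02%), the interleukin 12 receptor chain Il12rb2 (0.85 ± 0.34). Klrc1 stood at 1.73 ± 0.83, Ncr1, a receptor of these cells, at 0.37 ± 0.48 (−0.08 without tiragolumab replicate 3) and Xcl1 at −0.36 ± 0.66. Fc gamma receptors, through which antibodies engage myeloid and natural killer cells, had a median of 0.64 (0.19 without HLX53 replicate 2 and 0.41 without tiragolumab replicate 3) with 0 of 7 at an unadjusted p under 0.05. Fcgr4 had 134, 139 and 51.1 FPKM against 61.6, 88.3 and 15.8 (1.14 ± 0.84), Fcgr3 was at 0.64 ± 0.42, and the related Fcrls at −0.95 ± 0.91. Among myeloid lists, all 18 macrophage and monocyte genes were positive with a median of 0.74, and 1, the engulfment receptor Mertk (0.88 ± 0.34), had an unadjusted p under 0.05, a share near the background of 4.02%. The macrophage median was 0.14 without HLX53 replicate 2 and 0.48 without tiragolumab replicate 3. Without HLX53 replicate 3, 12 members had an unadjusted p under 0.05, beside 2092 higher genes among all 14914 tested.

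Antibody genes had the largest fold changes of the lymphocyte lists. Ighg1, the IgG1 heavy chain constant region (chromosome 12, 113325240 to 113330523, minus strand), had 14.0, 131 and 0.809 FPKM with HLX53 and 0.215, 0.43 and 0.0604 with tiragolumab (4.24 ± 1.26). Its arms do not overlap, and the HLX53 tumours differ among themselves by more than the arms' nearest tumours do. Igkc, the kappa constant region, had 118, 251 and 7.57 against 3.36, 17.3 and 0.702 (3.84 ± 1.51), and Jchain, which joins antibody units, 9.38, 19.9 and 0.651 against 0.391, 1.4 and 0.0742 (2.63 ± 0.91). The plasma cell chaperone Mzb1 was at 1.47 ± 0.58 and the IgM constant region Ighm at 1.23 ± 0.94. Of 8 tested genes of the B and plasma cell list 4 were higher at an unadjusted p under 0.05 (background 4.02%). The median of 1.35 became 0.69 without HLX53 replicate 2, with 1 such member, and 2.14 without HLX53 replicate 3, with 7. Over all 14914 genes, 169 and 2092 were higher at that p in these settings.

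Of 42 variable segments of antigen receptors that passed the filter 38 were positive. At an unadjusted p under 0.05, 21 were higher and none was lower, and 8 were higher without overlap. Over all genes tested the shares were 4.02% higher at that p and 6.28% higher without overlap. The 24 kappa segments had a median of 1.52 and the 11 T cell receptor beta segments 0.87. A segment can pass the filter through the few tumours that hold a clone, and near-identical segments share reads. Igkv6-23, for example, had 9.45, 3.805 and 5.84e-06 FPKM with HLX53 and at most 6.67e-06 with tiragolumab. The direction of these counts can thus be set in part by the filter. They describe the tumours, were not read against the shares over all genes, and add no support to the antibody gene values.

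Interferon response and MHC class I genes had small medians, and MHC class II genes a larger one. Of 28 interferon gamma response genes 25 were positive with a median of 0.42, and 1, the receptor chain Ifngr2 (0.37 ± 0.15), had an unadjusted p under 0.05, a share near the background of 4.02%. The chemokines Cxcl9 and Cxcl10 were at 1.06 ± 1.02 and −0.15 ± 0.67. Cxcl9 was at 0.12 without tiragolumab replicate 3, and Cxcl10 at 0.16 without HLX53 replicate 2. Of the type I interferon genes 13 of 21 were positive (median 0.07) and 0 had an unadjusted p under 0.05, and the antiviral gene Rsad2 was at 0.55 ± 0.51. Without tiragolumab replicate 3 the medians were −0.19 for interferon gamma and −0.25 for type I interferon. MHC class I genes had a median of 0.27 (−0.03 without that tumour), with B2m at 0.29 ± 0.29 and H2-K1 at 0.39 ± 0.42. The nonclassical class I gene H2-Q7 (chromosome 17, 35439155 to 35443773, plus strand) had 56.8, 20.7 and 16.1 FPKM with HLX53 and 5.07, 8.81 and 2.05 with tiragolumab (2.42 ± 0.74). It has near-identical neighbours among which reads can be split, so its value is uncertain. All 10 MHC class II genes were positive (median 1.30, and 0.69 without tiragolumab replicate 3). The class II chain H2-Aa had 142, 198 and 39.8 FPKM against 32.3, 78.6 and 8.29 (1.88 ± 1.06). Of the 10 class II genes 2 had an unadjusted p under 0.05 (background 4.02%), the peptide loading modulators H2-Oa (0.96 ± 0.34) and H2-Ob (0.68 ± 0.31).

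Connective tissue genes were higher without a small p. Of 22 fibroblast and matrix genes 21 were positive (median 1.27), 10 were higher without overlap (background 6.28%), and 0 had an unadjusted p under 0.05. Col1a1, a chain of type I collagen, had 409, 1165 and 310 FPKM with HLX53 and 136, 161 and 103 with tiragolumab (2.01 ± 1.04). Dcn, a matrix proteoglycan, was at 0.86 ± 0.45, the contractile actin Acta2 at 1.59 ± 0.82, and the fibronectin gene Fn1 at −0.25 ± 0.38 (0.15 without tiragolumab replicate 3). The protease Ctsk, which degrades collagen, had 143, 433 and 29.1 FPKM against 13.9, 14.2 and 6.35 (3.44 ± 1.27), and Timp3, an inhibitor of metalloproteinases, was at 1.27 ± 0.57. Both were higher in every HLX53 tumour. Of 15 endothelial genes 15 were positive with a median of 0.82, and 3 had an unadjusted p under 0.05 (background 4.02%): Plvap (1.25 ± 0.56), Emcn (1.01 ± 0.45) and Pecam1 (0.82 ± 0.39). In each HLX53 replicate 2 was the highest tumour, and it was the tumour with the adipocyte score of 6.64. Without it the fibroblast and matrix median was 0.64 and the endothelial median 0.23, Pecam1 was at 0.27, and no endothelial gene had an unadjusted p under 0.05, as was the case without HLX53 replicate 1 or tiragolumab replicate 1 or 3. Whether the surrounding tissue in that sample set these values was not tested. Without HLX53 replicate 3, 12 endothelial genes had an unadjusted p under 0.05, with a median of 1.33. In that setting 2092 of all 14914 genes were higher at that p.

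**Figure D4:**
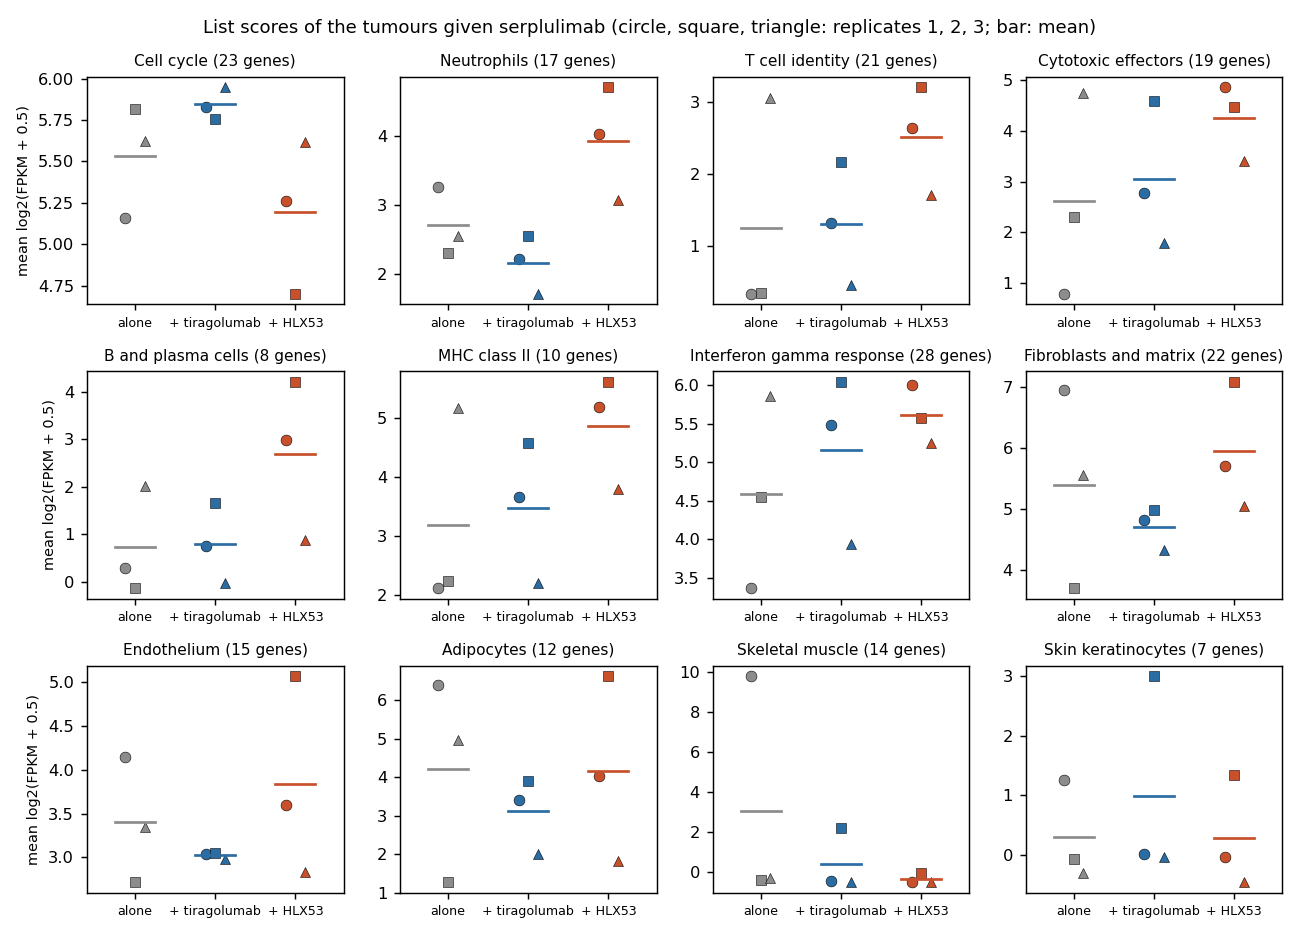
Scores of 12 gene lists, each the mean log2(FPKM + 0.5) of its tested genes, by tumour for serplulimab alone, with tiragolumab and with HLX53; shapes are replicates and bars are means. The HLX53 and tiragolumab arms are separate in the cell cycle, neutrophil and matrix scores, while HLX53 replicate 2 stands highest of its arm in the adipocyte, endothelial and matrix scores and tiragolumab replicate 2 in the muscle and skin scores.

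With predicted gene models and antigen receptor segments left out, the genes with the smallest p were a mixed set. Among the segments left out, Igkv6-23 and Igkv8-30 had an unadjusted p of 0.000889 and 0.00103 by limma. BC117090, in the stefin A cluster of protease inhibitors (chromosome 16, 36321665 to 36334332, minus strand), had 1.48, 1.38 and 0.479 FPKM with HLX53, 0.115 in tiragolumab replicate 2 and values listed near 0 in the other 2 tumours (1.52 ± 0.31, unadjusted p = 8.57e-05 by limma). It lies among near-identical genes that can share reads. Ddit4, an inhibitor of mTORC1 under stress (chromosome 10, 59949669 to 59951834, minus strand), had 32.4, 27.1 and 39.1 FPKM against 18.2, 19.8 and 17.0 (0.81 ± 0.20). The clock repressor Cry1 had 6.47, 5.35 and 6.22 against 3.05, 4.42 and 3.57 (0.65 ± 0.17). In Ddit4 and Cry1 the arms are apart and the tumours of an arm are close together, while in BC117090 HLX53 replicate 3 is well below its companions.

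The phosphatase Dusp1 (0.99 ± 0.30), the phosphodiesterase Pde1a (1.06 ± 0.29), Pou6f1 (0.76 ± 0.21), the collagen gene Col13a1 (1.45 ± 0.44) and the T cell receptor gamma gene Tcrg-C4 (0.70 ± 0.21) completed the 10 higher genes of smallest p outside gene models and segments, with Ighg1 and H2-Q7. The lower genes beside Brca2 were Ccdc138 (−0.52 ± 0.14), Ino80c (−0.68 ± 0.18), the amino acid transporter Slc7a3 (−0.50 ± 0.14), the spindle orientation gene Gpsm2 (−0.93 ± 0.26), Tbc1d7 (−0.57 ± 0.16), Armt1 (−0.39 ± 0.11), Lncenc1 (−1.14 ± 0.29), RP24-74B24.4 (−0.98 ± 0.26) and Rps15a-ps4 (−1.26 ± 0.29). The last is a ribosomal protein pseudogene whose reads can belong to its parent gene. All of them had an adjusted p of 0.373 by limma.

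Serplulimab alone, in 3 further tumours, stood between or beside the arms. The comparisons of each arm with it share those tumours and were read side by side. Cell cycle genes had a median of −0.33 with HLX53 added and 0.32 with tiragolumab added, and neutrophil genes 1.25 and −0.58. Mmp9 was at 3.38 with HLX53 added and −0.06 with tiragolumab added, Cxcl3 at 1.20 and −0.90, Ddit4 at 0.18 and −0.64, and Tigit at −0.52 and 0.38. The T cell identity list had medians of 1.28 and 0.06. Its scores were 0.33, 0.347 and 3.045 in the tumours given serplulimab alone and 2.636, 3.196 and 1.707 with HLX53 added. Serplulimab replicate 3 thus stood above HLX53 replicates 1 and 3. No gene passed in either comparison (0% of 14914 each), and the smallest adjusted p by limma was 0.259 with HLX53 and 0.0762 with tiragolumab, with 2002 and 1327 genes (13.4% and 8.90%) at an unadjusted p under 0.05, and 371 and 198 when the 6 tumours of each comparison were fitted alone. Among the serplulimab tumours replicate 1 had a skeletal muscle score of 9.81 against −0.42 and −0.30 in the others. Without serplulimab replicate 2, 91 genes passed for HLX53 added and 750 for tiragolumab added.

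The same exchange of HLX53 for tiragolumab was made beside pembrolizumab and without a PD-1 antibody, in other tumours of the same experiment. Neither gave a gene past the test (0% each), with 951 and 290 genes at an unadjusted p under 0.05 (6.38% and 1.94%) and a smallest adjusted p of 0.469 and 0.853 by limma. Across the 14914 genes the fold changes beside serplulimab correlated with those beside pembrolizumab at r = 0.643 and with those without a PD-1 antibody at r = 0.629, a description across genes that are not independent. Cell cycle genes had a median of −0.26 in both, with 0 of 23 at an unadjusted p under 0.05. The T cell identity list was at 1.09 beside pembrolizumab and 0.61 without a PD-1 antibody. Regulatory T cell genes were at 0.64 and 0.48, and fibroblast and matrix genes at 0.54 and 0.67.

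Other lists lay apart between the backgrounds. Interferon gamma response genes had a median of 2.30 beside pembrolizumab against 0.42 beside serplulimab, MHC class I genes 1.39 against 0.27, type I interferon genes 1.12 against 0.07 and cytotoxic genes 1.99 against 1.02. Neutrophil genes were at −0.05 beside pembrolizumab, 1.59 beside serplulimab and 1.44 without a PD-1 antibody. The tumours given pembrolizumab were uneven. Their interferon gamma scores were 6.05, 5.277 and 6.224 with HLX53 and 3.55, 2.986 and 5.01 with tiragolumab. The score of 2.986 was the lowest of the experiment's 27 tumours. Their neutrophil scores were 4.477, 1.419 and 2.824 with HLX53 and 2.3, 2.983 and 3.107 with tiragolumab. The difference of the exchange between the serplulimab and pembrolizumab backgrounds was tested gene by gene, and 0 of 14914 genes passed (0%). By limma 194 genes (1.30%) reached an unadjusted p under 0.05, and no adjusted p was below 1. Among these were 3 of 28 interferon gamma response genes, 4 of 21 type I interferon genes and 2 of 17 neutrophil genes. The 2 were Cxcl2, at −1.14 beside pembrolizumab (difference 3.30 ± 1.21), and Cxcl3, at −1.10 (3.19 ± 1.06). Against the background without a PD-1 antibody 0 genes passed (0%), 120 (0.805%) had an unadjusted p under 0.05, and none was a member of the cell cycle, neutrophil or interferon lists.

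**Figure D5:**
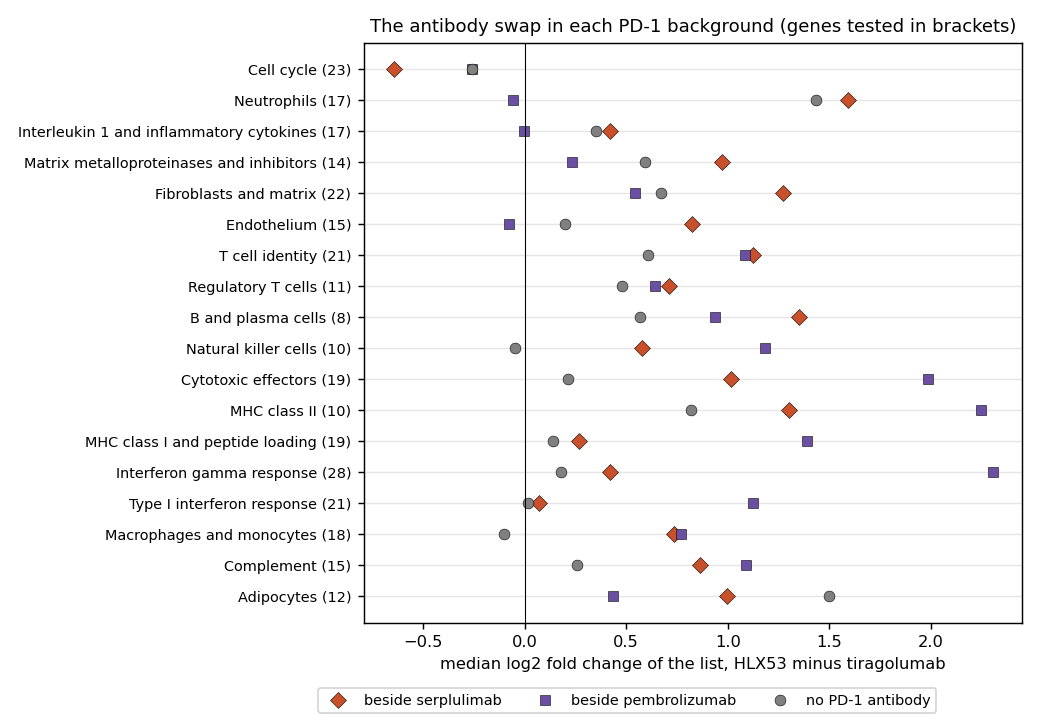
Median log2 fold change of HLX53 minus tiragolumab over the tested genes of 18 lists, beside serplulimab, beside pembrolizumab and without a PD-1 antibody. The interferon and MHC class I lists lie farther right beside pembrolizumab and the neutrophil list near 0 there, while cell cycle genes are left of 0 in each background.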

How the data were processed

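Bulk RNA of CT26 tumours was sequenced in paired reads of 150 bases. The deposited values are log2 FPKM per mouse gene, made by the authors. Per the submitters' processing notes, the tools listed are STAR, Bowtie, Trimmomatic and FastQC, with mm10, hg19 and GRCh37 as builds and no versions or roles. The sources used here do not give what computed FPKM or whether it used strand. The read depth is unknown, so no counting interval is given. Between 54.3% and 57.1% of genes in a library lie below a log2 value of −9, which stands for about 0.

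FPKM was recovered as a power of 2 from each log2 value, and log2(FPKM + 0.5) was tested. Genes at 0.5 FPKM or more in at least 3 of the experiment's 27 tumours were kept, 14914 of 47729. limma 3.58.1 in R 4.3.3 was fitted over all 9 groups of 3 with a mean-variance trend, on 18 residual degrees of freedom, with two-sided tests, Benjamini-Hochberg adjustment over all genes tested and a threshold of 0.05. An exact permutation test of 3 against 3 cannot go below p = 0.1, so none was used. Figures used matplotlib 3.10.9 in Python 3.11.15.

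The genes named were the 10 with the smallest p in each direction, leaving out predicted gene models and antigen receptor segments, a panel of 24 genes, and the 4 members, at most, of lowest p in each of 41 lists holding 565 genes, 564 measured and 520 tested; a few others were named after their values were seen. The members and lists were chosen with earlier results of these data known. Gene coordinates are from GENCODE M21 on GRCm38, which held 135 of 136 genes followed, and promoters are from RefSeq on GRCm38.p6. Alternatives changed the added constant, the filter, the scaling, the libraries fitted, the trend, library weights, a replicate block and each replicate left out. Leaving out both replicate 2 tumours and the second weighting method were chosen after seeing the data.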

Additional observations from a re-analysis of the deposited data

How the results depend on the processing

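Over 18 settings the count of genes past the threshold between the arms stayed at 0 except in 4. It was 4 with no filter (Igkv4-77, Pcsk1 and Dbh higher, Gm13940 lower, none above 0.236 FPKM in any library), 10204 with library weights whose estimate did not converge, 6933 with weights estimated gene by gene, and 12 without HLX53 replicate 3. Leaving out one replicate gave 0 to 12 genes here, 0 to 1 beside pembrolizumab, 0 without a PD-1 antibody, 0 to 1 and 0 to 2 for the differences from those backgrounds, 0 to 91 for HLX53 added to serplulimab and 0 to 750 for tiragolumab added. With no filter the pembrolizumab and no PD-1 antibody backgrounds gave 2 each, the differences from them 2 and 3, and HLX53 added 2. The unconverged weights gave 2 and 4, and 743 and 2536 for the differences; the gene-by-gene weights gave 1 beside pembrolizumab and 3 and 438 for the differences. The cause was not tested. With a replicate block 0 genes passed and 1747 had an unadjusted p under 0.05. Deviations from the arm means correlated between same-numbered tumours of the 2 arms at −0.014, 0.336 and 0.493 for replicates 1, 2 and 3. Replicates 2 and 3 correlated best with their own number, and replicate 1 did not. No label ties the numbers together, so the tumours were not taken as pairs. Fitting the 6 tumours alone gave 0 and 1142. Unadjusted counts were 1862, 415 and 4651 without HLX53 replicates 1, 2 and 3, and 884, 2128 and 730 without tiragolumab replicates 1, 2 and 3. Centring on library medians turned the unadjusted split for HLX53 added from 1273 higher and 729 lower to 732 and 1268, and for tiragolumab added from 992 and 335 to 324 and 654.

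Of 136 genes followed, 126 kept their sign in every setting run. The genes followed include those named for their small p here, for which a kept sign is likely. Some settings also leave a fold change as it was: Pvr stayed at −0.161 with the stricter filter, without a trend and with a replicate block. The genes that changed sign are given with the lowest and highest value over the replicates left out. Ifng (−0.402 to 0.951) was −0.049 with quantile normalization, −0.266 without HLX53 replicate 1 and −0.402 without tiragolumab replicate 3. Pvr (−0.46 to 0.326) was 0.391 and 0.35 under the 2 weightings, 0.326 without HLX53 replicate 2 and 0.27 without both replicate 2 tumours. Cxcl10 (−0.801 to 0.616) was 0.441 and 0.363 under the weightings, 0.157 without HLX53 replicate 2, 0.036 and 0.305 without tiragolumab replicates 1 and 2, and 0.616 without both. Without HLX53 replicate 2, Nectin4 (−0.116 to 0.672) was −0.116 and Adipoq (−0.771 to 2.773) was −0.771, and without both Adipoq was −0.229. Without tiragolumab replicate 2, Krt10 (−2.212 to 0.084) was 0.049 and Acta1 (−2.628 to 0.001) was 0.001, and without both Krt10 was 0.084. Without tiragolumab replicate 3, Gzma (−0.499 to 0.88) was −0.499, Fn1 (−0.631 to 0.148) was 0.148 and Ncr1 (−0.083 to 0.764) was −0.083. Of 41 list medians 32 kept their sign. With 3 tumours in an arm and unknown read depth, small differences of low genes were not detectable.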

Other observations

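Several gene groups outside the accounts above also had members with a small unadjusted p, and none passed the adjusted test. Bag3, a co-chaperone of heat shock proteins, had 36.0, 30.0 and 30.9 FPKM with HLX53 and 23.5, 21.8 and 22.2 with tiragolumab (0.51 ± 0.18), and the AP-1 member Jund had 56.8, 64.6 and 47.1 against 40.8, 41.2 and 40.4 (0.45 ± 0.16). In both genes the arms are apart and the tiragolumab tumours nearly equal. Mast cell genes had a median of 0.37, with the histamine-forming enzyme Hdc at 1.34 ± 0.61 and the stem cell factor receptor Kit at 0.72 ± 0.33, both higher without overlap. Among regulators of transforming growth factor beta, Ltbp1 had 52.4, 15.1 and 75.1 FPKM against 83.8, 71.7 and 89.8 (−1.05 ± 0.43), while its relative Ltbp2 had 8.47, 19.8 and 4.99 against 4.65, 2.94 and 3.74 (1.25 ± 0.53). The 2 genes lay in opposite directions, and HLX53 replicate 2 was the extreme tumour in each; without it they were at −0.37 and 0.73. Hypoxia and glycolysis genes had a median of 0.32 (0.08 without HLX53 replicate 1 and 0.66 without its replicate 2), mitochondrial transcripts 0.06 and heat shock chaperones 0.22.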
